A study of Homo sapiens with 12 samples.

Results

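The keratin gene family was examined in 2 human pancreatic ductal adenocarcinoma (PDAC) cell lines, PANC-1 and HPAF-II. Its members were all genes of the annotation whose symbol was KRT followed by a number and at most 1 letter, which gave 56 of 48114 genes. They comprised 27 type I genes, 26 type II genes, the pseudogenes KRT87P and KRT42P, and KRT222, which was assigned to neither type. Of these genes 28 lay on chromosome 12 and 28 on chromosome 17 (hg38). Among 4 markers of epithelial cells, EPCAM, CDH1, CLDN4 and CLDN7 were all present in both lines, while the pancreatic duct marker CFTR was at 0 in the 3 PANC-1 siCtrl libraries and the duct marker SOX9 was at 101732 to 113565 normalized counts there.

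Keratins are the intermediate filament proteins of epithelial cells. A filament is built from pairs of an acidic type I and a basic type II keratin, and each epithelium uses a characteristic set of pairs. KRT8 and KRT18 form the first pair of simple epithelia, and ducts of the pancreas add KRT7 and KRT19. KRT5, KRT14 and KRT15 belong to the basal layer of stratified epithelia, KRT6, KRT16 and KRT17 to wounded or proliferating ones, KRT1 and KRT10 to differentiating layers, and KRT81, KRT83 and KRT86 to hair and nail. In tumours, keratins serve as markers of the epithelium of origin.

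PANC-1 cells, which the study uses as basal-like PDAC cells, received control siRNA (siCtrl), siRNA against QKI (siQKI) or siRNA against RBFOX2 (siRBFOX2), and 3 libraries of polyA RNA were made per group. QKI and RBFOX2 are RNA-binding proteins that regulate splicing. The siRNAs against both targets were used at 40 nM and cells were collected after 48 h. HPAF-II cells, which the study uses as classical PDAC cells, received siCtrl only (48 h, 3 libraries), so that nothing here measures a knockdown in that line. All 4 groups are cell lines in culture, each of a single origin, and no label tied the replicates to separate cultures, so p-values measure the spread between these libraries, which may be technical.

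Values are normalized counts, which the authors obtained by dividing gene counts by a size factor per library. The library totals were 292248837 to 376192091 count units for the PANC-1 libraries and 226697015 to 309720537 for the HPAF-II libraries, before division. The targets were depleted as labelled. QKI was at 25909, 24539 and 26150 normalized counts in siCtrl and at 4630, 5453 and 5020 in siQKI libraries (5.08-fold lower, limma adjusted p = 9.2e-13). RBFOX2 was at 15355, 15508 and 15424 in siCtrl and at 2403, 2171 and 1712 in siRBFOX2 libraries (7.43-fold lower, limma adjusted p = 4.7e-11). RBFOX2 was also lower in siQKI libraries, by 0.29 on the log2 scale (SE 0.089, limma adjusted p = 0.0207). The third HPAF-II library stood apart. The median absolute log2 difference between libraries was 0.351 and 0.401 between it and the other HPAF-II libraries over genes with a mean of at least 1000, against 0.118 between those 2 libraries and 0.0559 to 0.0910 within the PANC-1 groups. Counts and the values that it moved most are therefore also given without it.

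Sequence for the family was available as RefSeq windows (GRCh38.p14) from 250 bases before to 50 bases after annotated starts, which matched 33 of the 56 genes. Those of KRT20, KRT75 and KRT32 are shown because they belong to genes on opposite sides of the difference between the lines described below, KRT20 being at 769 to 860 normalized counts in HPAF-II and at 0 to 36.2 in PANC-1 siCtrl, and KRT75 and KRT32 being the reverse. Capitals mark matches, on either strand, to CCAAT and GGGCGG. All 3 windows are on the minus strand, with the annotated start after base 250, at chr17:40885193-40885492 for KRT20, chr12:52434322-52434621 for KRT75 and chr17:41467337-41467636 for KRT32.
KRT20: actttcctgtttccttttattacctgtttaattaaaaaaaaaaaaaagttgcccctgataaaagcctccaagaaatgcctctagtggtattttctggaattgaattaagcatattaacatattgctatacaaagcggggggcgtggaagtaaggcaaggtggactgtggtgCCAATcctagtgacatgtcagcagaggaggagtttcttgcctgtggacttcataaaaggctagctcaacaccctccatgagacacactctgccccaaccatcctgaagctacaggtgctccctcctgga
KRT75: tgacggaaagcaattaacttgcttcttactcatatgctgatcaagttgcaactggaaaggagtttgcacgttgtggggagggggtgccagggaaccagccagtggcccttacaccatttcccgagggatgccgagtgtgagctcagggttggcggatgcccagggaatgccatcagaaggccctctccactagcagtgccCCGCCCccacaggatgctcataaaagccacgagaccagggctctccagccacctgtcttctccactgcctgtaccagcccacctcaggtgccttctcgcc
KRT32: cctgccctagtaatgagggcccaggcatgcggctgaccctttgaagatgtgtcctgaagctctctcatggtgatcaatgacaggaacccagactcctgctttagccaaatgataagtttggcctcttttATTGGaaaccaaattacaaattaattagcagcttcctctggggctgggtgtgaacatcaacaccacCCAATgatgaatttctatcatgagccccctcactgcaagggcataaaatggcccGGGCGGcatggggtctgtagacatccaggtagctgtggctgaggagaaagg

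Across the 33 keratin genes with a window, TATAAA was found for 20, against 11.5% of all 35116 windows of this length. The 33 genes had 37 windows, and a gene was counted if any of its windows matched, while the share over all windows is per window. CCAAT was found for 17 of the 33 (34.6% of all windows) and GGGCGG for 6 of the 33 (45.0% of all windows). Each motif was searched on both strands and counted separately from the others, so matches to different motifs may share bases. Of the windows shown, KRT20 held CCAAT, KRT75 held GGGCGG and KRT32 held both, and none held TATAAA. These are letter matches only, and no window was available for KRT7, KRT18, KRT19, KRT15, KRT23, KRT80, KRT81 and KRT86.

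In PANC-1 cells the family was dominated by the simple epithelial keratins. The 56 genes together held 0.268% ± 0.0053 (SD, n = 3) of the summed counts of the siCtrl libraries, and KRT8, KRT18 and KRT19 held 95.7% of that keratin sum. Per kilobase of transcript, after rescaling each library to a total of 1000000, the mean level in siCtrl was 708 for KRT8, 605 for KRT18 and 331 for KRT19. KRT80, a type II keratin found in many tissues, came next with 20.9. KRT10 at 4.61, KRT15 at 4.39 and KRT7 at 2.37 followed, and the hair keratin KRT81 was at 1.75.

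Most of the family was near the lower end of the scale. In PANC-1, 7 keratins averaged 1000 normalized counts or more over the 9 libraries, and 34 averaged 10 or more and were tested. Of the 34, 19 had means between 10 and 100, and their single libraries ranged from 0 to 145 normalized counts. The 22 untested keratins did not exceed 37.9 in any PANC-1 library. KRT25, KRT26, KRT27 and KRT28, which belong to the inner root sheath of the hair follicle, were at 0 in all 12 libraries. Of the classical basal pair, KRT5 was at 68.9, 39.0 and 33.2 normalized counts and KRT14 at 5.74, 17.99 and 24.1 in siCtrl libraries, close to the lower limit of what was tested.

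**Figure D1:**
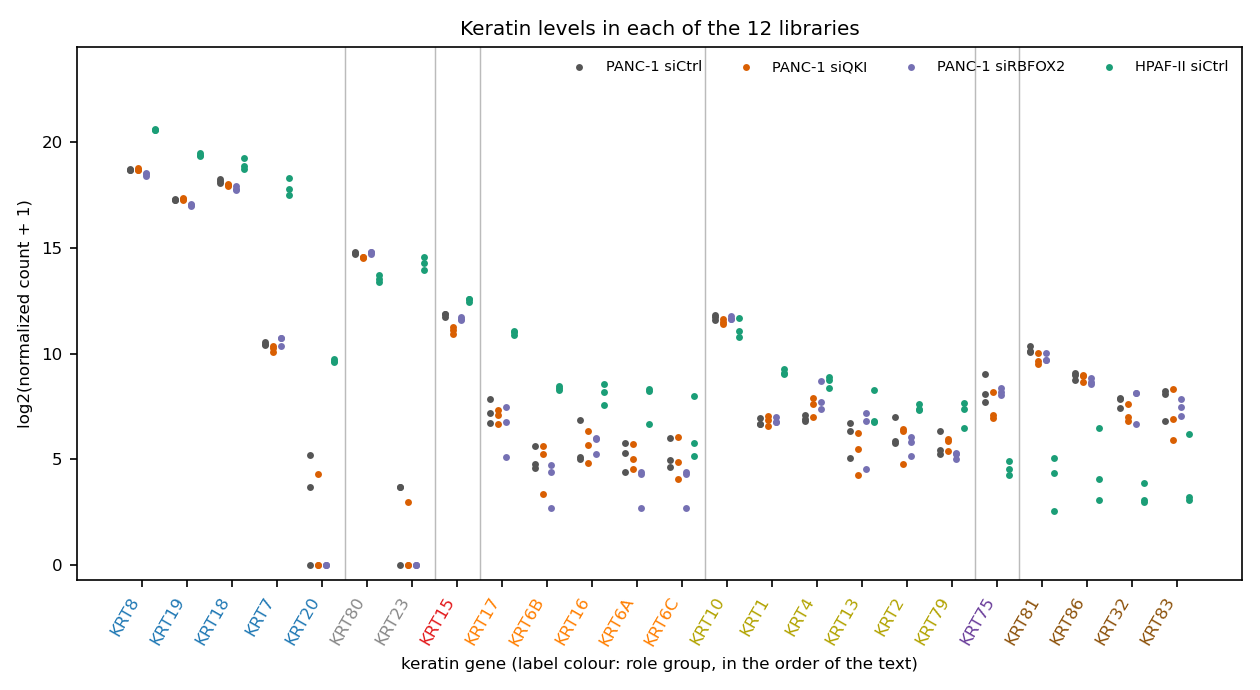
Normalized counts of the 24 keratins with a mean of at least 100 in either line, on a log2(value + 1) axis, with 1 point per library (3 per group, 12 in all) and vertical lines between role groups. KRT8, KRT18 and KRT19 sit highest in every library, the HPAF-II points lie above the PANC-1 points for KRT7, KRT20, KRT23 and KRT17, and below them for KRT75, KRT81, KRT86 and KRT32. For KRT83 the HPAF-II points lie below those of PANC-1 siCtrl, but HPAF-II replicate 2 at 72.2 lies above siQKI replicate 3 at 59.8.

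Which keratins changed on depletion of QKI was asked first. Of the 34 tested keratins, 4 passed the test in siQKI against siCtrl, and all 4 were lower. They were KRT15, KRT18, KRT80 and KRT81. Over all 22544 tested genes, 33% passed the test, 18.1% lower and 14.9% higher, so the share of keratins that passed, 11.8%, was below that background. The median log2 fold change was -0.20 over the 34 keratins and 0.03 over all tested genes. The precision differed with the level. The median SE of the log2 fold change was 0.822 for the 19 keratins with means between 10 and 100 and 0.0511 for the 7 with a mean of at least 1000. None of the 19 passed. Among genes with a mean of at least 1000, a limit chosen after seeing the data, 58.4% passed, 35.9% lower and 22.4% higher, and so did KRT15, KRT18 and KRT80 of the 7 keratins.

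KRT15, a type I keratin of basal cells, showed the largest fall among the keratins that passed. It was at 3744, 3385 and 3709 normalized counts in siCtrl libraries and at 2479, 2193 and 1969 in siQKI libraries. The groups did not overlap, and KRT15 was 1.64-fold lower in siQKI (log2 fold change -0.71, SE 0.085, limma adjusted p = 1.2e-05). KRT15 was at 3201, 3358 and 3083 in siRBFOX2 libraries. These also lay below all siCtrl libraries, but the difference did not pass the test (log2 fold change -0.17, adjusted p = 0.175). KRT15 was lower in siQKI than in siRBFOX2 as well, by 0.54 on the log2 scale (SE 0.085, limma adjusted p = 0.00028), so the response to the knockdowns differed for this gene.

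KRT80 fell by less but as regularly. Its siCtrl libraries were at 26883, 28741 and 27611 normalized counts and its siQKI libraries at 24297, 24236 and 23891. It was 1.15-fold lower in siQKI (log2 fold change -0.20, SE 0.040, limma adjusted p = 0.0012), with no overlap between groups. In siRBFOX2 libraries KRT80 was at 28701, 27188 and 28701, and its log2 fold change against siCtrl was 0.02 with a 95% interval of -0.06 to 0.11. The direct comparison gave KRT80 lower in siQKI than in siRBFOX2 by 0.22 on the log2 scale (adjusted p = 0.00089).

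KRT18, the type I partner of KRT8, was the single keratin that passed the test as lower in both knockdowns. It was at 276800, 312244 and 298042 normalized counts in siCtrl libraries, at 268595, 254953 and 249001 in siQKI libraries and at 247538, 221732 and 226693 in siRBFOX2 libraries. Every knockdown library lay below every siCtrl library. KRT18 was 1.15-fold lower in siQKI (log2 fold change -0.20, SE 0.051, limma adjusted p = 0.0072) and 1.27-fold lower in siRBFOX2 (log2 fold change -0.35, adjusted p = 0.00013). The call in siQKI was lost without the mean-variance trend (adjusted p = 0.0722). Both comparisons use the same siCtrl libraries. The first 1006 bases of the KRT18 gene (chr12:52948855-52949860) also lie within the annotated span of KRT8, and how the counting treated strand there is not stated.

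KRT81, a type II hair keratin, was at 1103, 1314 and 1077 normalized counts in siCtrl, at 1053, 733 and 808 in siQKI and at 834, 826 and 1051 in siRBFOX2 libraries. All 6 knockdown libraries lay below the 3 siCtrl libraries. It passed the test in siQKI (1.36-fold lower, limma adjusted p = 0.0349) and did not in siRBFOX2 (1.29-fold lower, adjusted p = 0.0877). The call in siQKI was lost without siCtrl replicate 1 or 2 or siQKI replicate 2 or 3 (adjusted p 0.0526 to 0.152), and with all libraries under upper-quartile scaling (adjusted p = 0.0702) or without the mean-variance trend (adjusted p = 0.0956). In siRBFOX2 a call was gained without siRBFOX2 replicate 3 (adjusted p = 0.0414). KRT86, a close relative, was at 426 to 538 in siCtrl, 399 to 501 in siQKI and 379 to 466 in siRBFOX2. The KRT81 gene lies wholly inside the annotated span of KRT86, and 25.6% of its 150-base windows are also found in KRT86, so that counts of these genes cannot be fully separated.

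The other abundant keratins did not pass the test in siQKI. KRT8 was at 422706, 438819 and 421954 normalized counts in siCtrl and at 456922, 420448 and 427692 in siQKI libraries. The groups overlapped, and the 95% interval of the log2 fold change was -0.07 to 0.11. KRT19 overlapped likewise, with 157235, 161941 and 156003 in siCtrl, 170070, 156119 and 162259 in siQKI, and a 95% interval of -0.05 to 0.12. KRT10, a type I keratin of differentiating epidermis, was at 3622, 3418 and 3058 in siCtrl and at 3225, 2925 and 2685 in siQKI (log2 fold change -0.19, limma adjusted p = 0.1003). A call for KRT10 was gained without siCtrl replicate 3 (adjusted p = 0.0448) or siQKI replicate 1 (adjusted p = 0.0421).

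The KRT10 gene shares 77.2% of its span with the antisense gene KRT10-AS1, which was itself lower in siQKI, by 0.38 on the log2 scale (limma adjusted p = 0.00034). Without strand, reads of KRT10 and KRT10-AS1 cannot be told apart in the shared part. KRT7, the type II keratin of ducts, was at 1517, 1400 and 1373 in siCtrl and at 1325, 1091 and 1227 in siQKI libraries, which did not overlap but did not pass the test (log2 fold change -0.24, SE 0.12, adjusted p = 0.155). In all, 6 keratins had all siQKI libraries below all siCtrl libraries and 2 had all above, of 34, where 23% and 21.6% of all tested genes did.

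Depletion of RBFOX2 gave a set of keratins that shared KRT18 with that of siQKI. In siRBFOX2 against siCtrl, 4 of the 34 keratins passed the test, where 26.5% of all tested genes did, 14.5% lower and 12% higher. KRT8, KRT18 and KRT19 were lower and KRT4 was higher. Among genes with a mean of at least 1000, 50% passed, 30.6% lower and 19.5% higher, and KRT8, KRT18 and KRT19 were 3 of the 7 keratins of that level. Among the 34, 6 keratins had all siRBFOX2 libraries below all siCtrl libraries and 1 had all above, where 19.7% and 18.2% of all tested genes did. The median log2 fold change was -0.20 over the 34 keratins and 0.01 over all tested genes.

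KRT8, the main type II keratin of simple epithelia, was at 375753, 368565 and 348514 normalized counts in siRBFOX2 libraries, all below the lowest siCtrl library at 421954. It was 1.17-fold lower (log2 fold change -0.23, SE 0.042, limma adjusted p = 0.00078). KRT19, the smallest keratin and a duct marker, was at 139683, 135415 and 130474, again below the lowest siCtrl library at 156003. It was also 1.17-fold lower (log2 fold change -0.23, SE 0.040, limma adjusted p = 0.000595). Together with KRT18, the 3 keratins that hold nearly the whole keratin sum were thus lower in siRBFOX2. The share of the library held by all keratins was 0.233% ± 0.0086 (SD, n = 3) in siRBFOX2 libraries, against 0.268% in siCtrl and 0.269% ± 0.0085 in siQKI.

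KRT4, a type II keratin of the mucosa of mouth and oesophagus, was the single keratin that passed the test as higher in a knockdown. It was at 111, 118 and 137 normalized counts in siCtrl, at 197, 126 and 237 in siQKI and at 209, 413 and 166 in siRBFOX2 libraries. Its siRBFOX2 libraries lay above all siCtrl libraries, and the difference passed the test narrowly (log2 fold change 0.99, SE 0.35, limma adjusted p = 0.0469). The highest library held much of it, since the log2 fold change was 0.61 without siRBFOX2 replicate 2 (adjusted p = 0.230). The call was kept under 5 of 17 alternatives and was also lost when any of the siCtrl libraries, siQKI replicate 1 or 3, or siRBFOX2 replicate 1 was left out (adjusted p 0.0510 to 0.112).

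The direct comparison of the knockdowns, which tests whether keratins respond differently to them, was passed by 6 of the 34 keratins, where 21.5% of all tested genes passed, 9.93% higher and 11.6% lower in siQKI. All 6 averaged 1000 or more, a level at which 42.3% of genes passed, 19.5% higher and 22.7% lower. Of the 34, 6 keratins lay higher and 2 lower in siQKI without overlap, against 17.1% and 18.1% of all tested genes. KRT8, KRT18 and KRT19 were higher in siQKI than in siRBFOX2. KRT8 differed by 0.26 (SE 0.042) and KRT19 by 0.27 (SE 0.040) on the log2 scale, with limma adjusted p of 0.000411 and 0.000185. KRT18 differed by 0.15 (adjusted p = 0.0469). KRT15, KRT80 and KRT7 were lower in siQKI. KRT7 had siRBFOX2 libraries at 1735, 1297 and 1721 normalized counts, of which the lowest overlapped the siQKI range of 1091 to 1325, and differed by -0.38 on the log2 scale (limma adjusted p = 0.0386).

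The calls of KRT18 and KRT7 in this comparison were kept under 8 and 11 of 18 alternatives. That of KRT18 was lost without siCtrl replicate 3, without any of the siQKI replicates or without siRBFOX2 replicate 2 or 3 (adjusted p 0.0554 to 0.173). With all libraries it was also lost at a pseudocount of 0.1, with no filter, with the replicate block or without the trend (adjusted p 0.0524, 0.0717, 0.0665 and 0.193). That of KRT7 was lost without siQKI replicate 2 or 3 or siRBFOX2 replicate 1 or 3 (adjusted p 0.0798 to 0.154), and with all libraries under upper-quartile scaling, in a fit of the 2 groups alone or without the trend (adjusted p 0.0568, 0.0614 and 0.108). The calls of KRT8, KRT19, KRT15 and KRT80 were kept under all 18 alternatives.

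**Figure D2:**
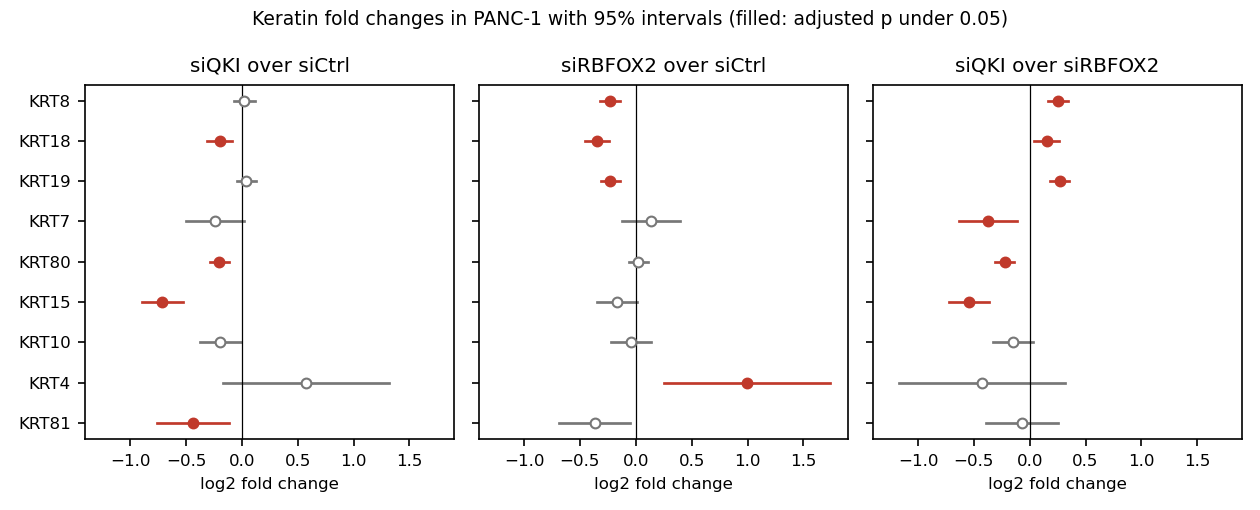
Log2 fold changes (points) with 95% intervals (lines) for 9 keratins in the 3 comparisons of PANC-1 groups, from a fit of log2(normalized count + 1) over 9 libraries. Filled red points passed the test. KRT15 is lowest in siQKI at -0.71, KRT8, KRT18 and KRT19 lie left of 0 in siRBFOX2 and right of 0 in the direct comparison, and KRT4 has the widest interval.

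The pairing partners KRT8 and KRT18 did not move in parallel. The ratio of KRT8 to KRT18 per kilobase of transcript was 1.24, 1.14 and 1.15 in siCtrl libraries, 1.38, 1.33 and 1.39 in siQKI libraries and 1.23, 1.34 and 1.24 in siRBFOX2 libraries. The siQKI values lay above all siCtrl values, and the siRBFOX2 values overlapped with siCtrl. Summed over the family, type II over type I keratins per kilobase was 0.765 to 0.802 in siCtrl, 0.841 to 0.855 in siQKI and 0.805 to 0.853 in siRBFOX2 libraries. No test was run on these sums of chosen members.

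Apart from KRT15 and KRT10, keratins of stratified, stressed and cornifying epithelia stayed low in all PANC-1 groups, and none of them but KRT4 and KRT15 passed a test. Of the 5 stress keratins, KRT17 was at 231, 145 and 105 normalized counts in siCtrl, at 138, 163 and 103 in siQKI and at 175, 109 and 33.3 in siRBFOX2 libraries, which overlapped. KRT16, KRT6A, KRT6B and KRT6C were at 5.56 to 115 across the 9 libraries. KRT6A, KRT6B and KRT6C share 9.25%, 12.8% and 16.5% of their 150-base windows with each other, so their single values are uncertain. KRT5 was at 23.9, 13.1 and 9.44 in siQKI, all below the siCtrl libraries, but the difference did not pass the test. Of the 10 keratins that the study's table of tumour subtype genes holds (KRT5, KRT6A, KRT6B, KRT6C, KRT7, KRT13, KRT14, KRT16, KRT17 and KRT81) 1 passed in siQKI (KRT81) and 0 in siRBFOX2, against 33% and 26.5% of all tested genes. At an unadjusted p under 0.05 in the limma fit there were 2 in siQKI (KRT81 and KRT5) and 1 in siRBFOX2 (KRT81), against 41.2% and 35.8% of all tested genes.

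A small group of hair keratins was detected in PANC-1 cells. Beside KRT81 and KRT86, KRT83 was at 112, 273 and 303 normalized counts in siCtrl, at 120, 320 and 59.8 in siQKI and at 177, 231 and 132 in siRBFOX2 libraries. KRT32, a type I hair keratin, was at 171, 231 and 243 in siCtrl, at 128, 199 and 113 in siQKI and at 101, 277 and 281 in siRBFOX2. KRT75, a keratin of the companion layer of the hair follicle, was at 207, 271 and 523 in siCtrl, at 294, 134 and 125 in siQKI and at 289, 266 and 330 in siRBFOX2. Each of these 3 genes varied more than 2-fold between libraries of at least 1 group, and the groups overlapped. Of the 16 hair and nail keratins, 8 were below the minimum for testing in PANC-1.

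The lines were then compared, which bears on how the keratin set differs between the basal-like and the classical cell line. HPAF-II and PANC-1 values were normalized by the authors in separate tables, so no test was run. Counts were brought to a library total of 1000000, and the 41 keratins that averaged 10 normalized counts or more in either siCtrl group were compared. Of the 41, 32 were at least 2-fold higher in HPAF-II and 5 at least 2-fold lower, 37 in all. KRT12, KRT23, KRT31, KRT35, KRT71, KRT72, KRT73, KRT74, KRT78 and KRT82 averaged under 10 in PANC-1 siCtrl, and KRT32 under 10 in HPAF-II. These were compared only because of the line where they were higher, so the filter itself favoured their direction. Of the 24673 compared genes 53.2% were at least 2-fold apart, 26.1% higher and 27.1% lower in HPAF-II. The median log2 difference was 1.58 over the 41 keratins and 0.02 over all compared genes. Without overlap between the 3 and 3 libraries these were 26 and 5 keratins, with 20.9% and 22% of all genes. Of the 10 keratins that averaged 1000 or more in either line, 6 were higher and 1 lower in this way, against 19.8% and 20.2% of genes of that level. Leaving out the third HPAF-II library gave 29 higher and 6 lower, of 42 compared, and a pseudocount of 0.1 gave 19 higher and 5 lower, of 41. The summed keratin share was 1.04%, 1.06% and 1.15% in the HPAF-II libraries, 4.05-fold that of PANC-1 siCtrl.

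**Figure D3:**
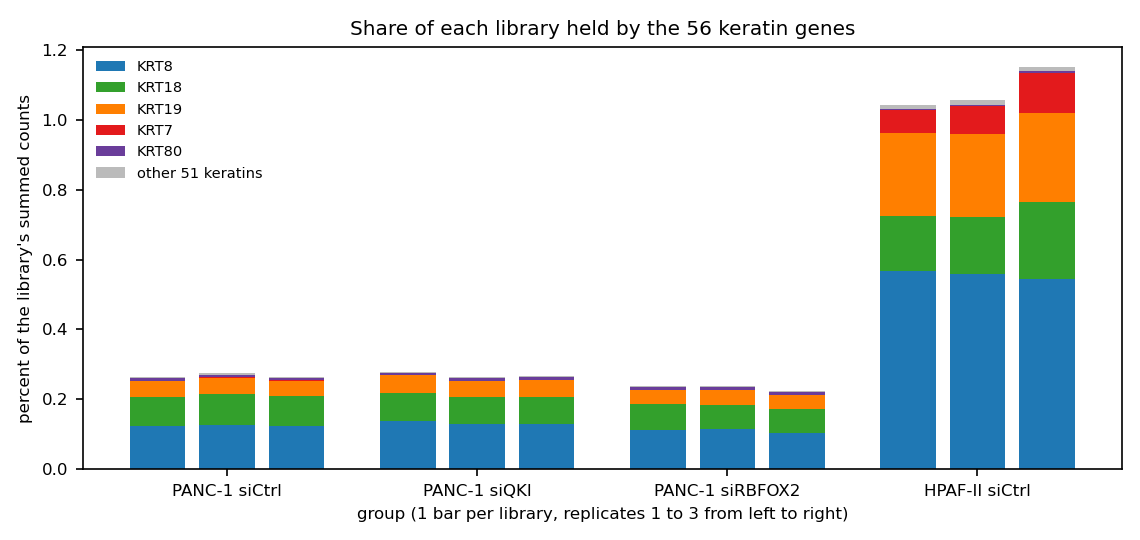
Percent of the summed counts of each library held by the 56 keratin genes, with 1 stacked bar per library and colours for KRT8, KRT18, KRT19, KRT7, KRT80 and the remaining keratins. HPAF-II bars reach 1.04% to 1.15% and hold a visible KRT7 part, and the siRBFOX2 bars, at 0.223% to 0.238%, lie below those of siCtrl.

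The simple epithelial keratins were all higher in HPAF-II. On the rescaled scale KRT8 was at 5561 ± 111 (SD, n = 3) in HPAF-II and at 1243 ± 19.5 in PANC-1 siCtrl, 4.47-fold. KRT19 was at 2441 ± 103 and 460 ± 7.38, 5.30-fold. KRT18 was at 1813 ± 342 and 859 ± 40.1, 2.09-fold, and fell below 2-fold without the third HPAF-II library (log2 difference 0.91) or with the values as deposited (log2 difference 0.78). Per kilobase, KRT8 was 1.997 to 2.91 times KRT18 in HPAF-II libraries, against 1.14 to 1.24 times in PANC-1 siCtrl libraries.

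KRT7, the keratin of ducts, differed widely between the lines. Its normalized counts were 183874, 226318 and 327938 in HPAF-II libraries and 1517, 1400 and 1373 in PANC-1 siCtrl libraries. After rescaling, KRT7 was 202-fold higher in HPAF-II, with a log2 difference of 7.66 and of 7.43 without the third HPAF-II library. It made up 6.30%, 7.45% and 10.0% of the keratin sum in HPAF-II libraries and 0.147% to 0.169% in PANC-1 siCtrl. The KRT7-AS gene, which overlaps KRT7 over 2406 bases, was at 1133 ± 299 normalized counts in HPAF-II and 34.6 ± 6.67 in PANC-1 siCtrl, and 4.80% of the 150-base windows of KRT7 are also found in KRT7-AS. The knockdowns left KRT7 at 1091 to 1735, far from the HPAF-II level.

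The type I keratins KRT20, a marker of intestinal epithelium, and KRT23 were high in HPAF-II and hardly detected in PANC-1. KRT23 was at 19940, 24017 and 15716 normalized counts in HPAF-II libraries and at 0, 11.99 and 12.1 in PANC-1 siCtrl. KRT20 was at 860, 803 and 769 in HPAF-II libraries and at 0, 11.99 and 36.2 in PANC-1 siCtrl. Both were at 0 in all 3 siRBFOX2 libraries, and at 0 in 2 of 3 siQKI libraries. No fold is given, since the PANC-1 libraries held 0 or few counts.

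Keratins of stratified and stressed epithelia were also higher in HPAF-II, at lower levels. KRT17 was at 2093, 2130 and 1895 normalized counts in HPAF-II libraries and at 105 to 231 in PANC-1 siCtrl, 15.9-fold after rescaling. All 5 stress keratins were at least 2-fold higher, 4 of them without overlap. KRT6C overlapped, and its log2 difference of 1.31 was 0.49 without the second HPAF-II library. KRT6B was at 306 to 354 and KRT16 at 190 to 376 in HPAF-II libraries, 11.7-fold and 6.24-fold above PANC-1 siCtrl after rescaling. KRT15 was at 6099, 6223 and 5522 and was 1.99-fold higher without overlap, just inside 2-fold, and 2.07-fold higher without the third library. KRT1 and KRT4 were at 529 to 612 and 332 to 470, 6.13-fold and 3.98-fold higher. KRT5 and KRT14 were 2.04-fold and 4.74-fold higher after rescaling, without overlap, but at only 33.3 to 111 normalized counts in HPAF-II libraries. Of the 10 keratins of the tumour subtype table, 9 were at least 2-fold higher in HPAF-II and 1, KRT81, was lower, where 26.1% and 27.1% of all compared genes were. Without the third HPAF-II library, KRT5 and KRT13 were 1.73-fold and 1.996-fold higher.

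KRT80 and some of the hair keratins went the other way. KRT80 was at 10825, 11888 and 13426 normalized counts in HPAF-II libraries against 26883 to 28741 in PANC-1 siCtrl, 1.91-fold lower after rescaling and without overlap, and 2.01-fold lower without the third HPAF-II library. KRT10 overlapped between the lines, with 1757, 2152 and 3322 in HPAF-II libraries, but lay below all PANC-1 siCtrl libraries without the third (log2 difference -0.51, and -0.25 with it). The 5 keratins that were at least 2-fold lower in HPAF-II were KRT81, KRT86, KRT32, KRT75 and KRT83, that is 4 of the 9 compared hair and nail keratins and KRT75. The other 5 compared hair and nail keratins, KRT31, KRT35, KRT82, KRT84 and KRT85, were at least 2-fold higher in HPAF-II, but at low levels. KRT31, KRT35 and KRT82 averaged 20.3, 11.1 and 17.5 normalized counts there, against 0.957, 0.957 and 6.84 in PANC-1 siCtrl. They were thus compared only through HPAF-II, and KRT35 overlapped between the lines. KRT84 and KRT85 averaged 63.7 and 53.7 in HPAF-II, against 29.7 and 16.4 in PANC-1 siCtrl. For the 5 lower keratins, none of the HPAF-II libraries overlapped with those of PANC-1 siCtrl.

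KRT81 was at 4.94, 32.1 and 19.3 normalized counts in HPAF-II libraries and at 1077 to 1314 in PANC-1 siCtrl, 52.9-fold lower after rescaling. KRT86 was at 7.40, 16.0 and 89.0 in HPAF-II, 15.6-fold lower. KRT32 was at 6.87 to 13.8, KRT75 at 18.3 to 29.6 and KRT83 at 7.40 to 72.2 in HPAF-II libraries, 15.1-fold, 9.99-fold and 8.64-fold lower. Single libraries moved some of these values. The log2 difference of KRT86 was -3.96 with all libraries, -4.87 without the third HPAF-II library and -3.29 without the first. That of KRT83 was -3.11 with all libraries, -4.04 without the second and -2.62 without the first, and that of KRT81 was -5.72, -6.19 without the second and -5.12 without the first. The pseudocount of 0.01 bears on folds at these levels, and with 0.1 the log2 difference was -4.43 for KRT81 in place of -5.72.

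**Figure D4:**
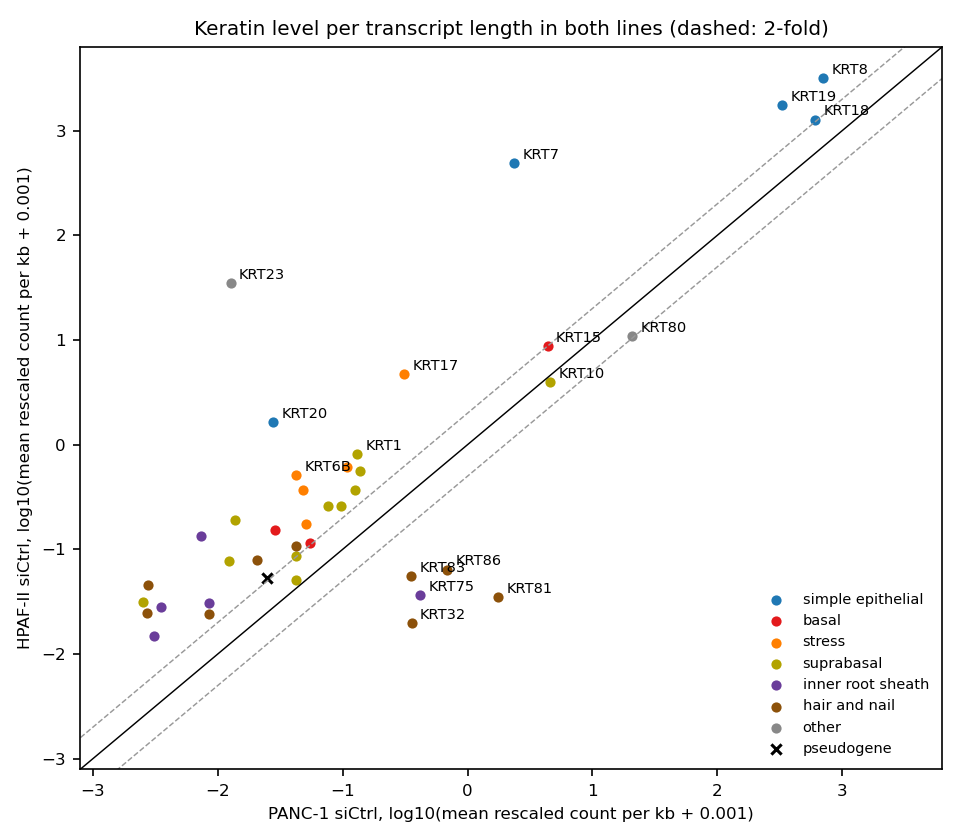
Mean level of keratins per kilobase of transcript in PANC-1 siCtrl (horizontal) and HPAF-II siCtrl (vertical), each the mean of 3 libraries rescaled to a total of 1000000, as log10(value + 0.001), coloured by role, with lines at equality and at 2-fold. KRT7 and KRT23 lie farthest above the line, and KRT81, KRT86, KRT32, KRT75 and KRT83 form a group below it.

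Markers of other cell types and of epithelium were read in the same libraries. Between the lines, EPCAM was at 93021 to 139895 normalized counts in HPAF-II and 4689 to 4785 in PANC-1 siCtrl libraries, CDH1 at 45907 to 63228 and 968 to 997, and CLDN7 at 16402 to 34978 and 5264 to 6342. CLDN4 overlapped between the lines, at 28569 to 78106 and 63066 to 70763. The summed rescaled level of the 4 genes was 826 to 887 in HPAF-II and 219 to 238 in PANC-1 siCtrl. In the knockdowns the sum, most of which was CLDN4 in PANC-1, was 210 to 231 in siQKI and 187 to 190 in siRBFOX2. The single markers differed in direction there, with CLDN4 at 55309 to 62168 in siQKI and 49951 to 51588 in siRBFOX2, both below siCtrl, and CDH1 at 2275 to 3026 and 1322 to 1535, both above it. Fibroblast markers summed to 11.5 to 13.1 in siCtrl, 23.8 to 27.5 in siQKI, 13.7 to 21.1 in siRBFOX2 and 19.0 to 21.2 in HPAF-II. Among them DCN and LUM were at 0 in the siCtrl PANC-1 libraries, but at 18.3 to 279 and 249 to 359 in HPAF-II. LUM averaged 1.05 in siQKI and 19.8 in siRBFOX2, while DCN was at 0 in both. COL1A1 was at 3869 to 4282 in PANC-1 siCtrl, 7589 to 8969 in siQKI, 4460 to 6618 in siRBFOX2 and 4951 to 5640 in HPAF-II. COL3A1 was at 104 to 157 in PANC-1 siCtrl and at 0 to 29.6 in HPAF-II. Immune markers summed to 144 to 167 in siCtrl, 116 to 118 in siQKI, 126 to 133 in siRBFOX2 and 75.8 to 106 in HPAF-II. PTPRC and CD3E were at 0 in the siCtrl PANC-1 libraries, and CD68 was at 50068 to 56672 there and at 21547 to 30412 in HPAF-II. PTPRC reached 20.3 in siRBFOX2 and CD3E reached 24.1 in HPAF-II. The part of these markers in the keratin results was not tested.

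Genes that work with keratins were read from the same fit. The lists held 13 genes of desmosomes, hemidesmosomes and linkers, 8 keratin-binding proteins and 16 transcription factors known to act on keratin genes. In siQKI, 7 of the 13 tested linker genes passed, 4 higher and 3 lower, against 33% of all tested genes. Among genes with a mean of at least 1000, which all linkers but PKP1, PKP2 and COL17A1 reached in PANC-1, 58.4% passed. EPPK1, which encodes epiplakin, a keratin-binding linker, was at 5484, 6271 and 5142 normalized counts in siCtrl and at 8581, 9617 and 8381 in siQKI, 1.58-fold higher (limma adjusted p = 6.0e-05). PKP1, a desmosomal plakophilin, was at 370 to 486 in siCtrl and 192 to 247 in siQKI, 2.06-fold lower (adjusted p = 0.0079). COL17A1, a hemidesmosomal collagen, was at 439 to 532 and 153 to 374, 2.18-fold lower (adjusted p = 0.0095), a call lost without siQKI replicate 3 (adjusted p = 0.0513). In siRBFOX2, 6 of the 13 passed, 3 in each direction, against 26.5% of all tested genes and 50% of those with a mean of at least 1000. PKP1 was 1.80-fold lower in siRBFOX2 (adjusted p = 0.0318), with a call lost without siCtrl replicate 1 or 3 or siRBFOX2 replicate 2 or 3 (adjusted p 0.0930 to 0.134). The medians of the list were 0.03 in both, beside 0.03 and 0.01 over all genes.

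The keratin-binding proteins were mostly lower in siQKI. Of the 8, 6 passed in siQKI, 5 lower and 1 higher, and 4 passed in siRBFOX2, 1 lower and 3 higher, against 33% and 26.5% of all tested genes. All 8 averaged more than 1000 in PANC-1. Among genes with a mean of at least 1000, 58.4% passed in siQKI, 35.9% lower and 22.4% higher. In siRBFOX2 50% of these passed, 30.6% lower and 19.5% higher. The list's median log2 fold change was -0.28 in siQKI and -0.0049 in siRBFOX2. TGM2, a transglutaminase that crosslinks proteins, was at 11264, 10835 and 11761 normalized counts in siCtrl and at 6273, 6181 and 6035 in siQKI, 1.83-fold lower (limma adjusted p = 1.2e-08). TRADD, an adaptor of TNF receptor signalling that binds KRT14 and KRT18, was at 5200, 6632 and 6175 and at 3777, 3256 and 3894, 1.64-fold lower (adjusted p = 1.4e-05). Neither passed in siRBFOX2, and both were lower in siQKI than in siRBFOX2 (1.77-fold with adjusted p = 5.8e-08, and 1.69-fold with adjusted p = 1.7e-05).

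Of the 16 transcription factors, 14 were tested. In siQKI 8 passed, 4 in each direction, and in siRBFOX2 6 passed, 4 higher and 2 lower, against 33% and 26.5% of all tested genes, with list medians of 0.14 and 0.26 on the log2 scale. Among genes with a mean of at least 1000, a level that part of this list reached, 58.4% and 50% passed. TP63, the regulator of basal epithelial identity, was low and fell in siQKI, from 50.7, 53.0 and 112 normalized counts to 4.56, 32.3 and 19.9 (log2 fold change -2.11, SE 0.71, limma adjusted p = 0.0313). That call was lost without siCtrl replicate 3 (adjusted p = 0.130) or siQKI replicate 1 (adjusted p = 0.128). TP63 was at 158, 143 and 45.4 in siRBFOX2 and was lower in siQKI than there (adjusted p = 0.0119), a call lost without siRBFOX2 replicate 1 (adjusted p = 0.0600). TFAP2C was 2.17-fold lower in siRBFOX2, with 2237, 2654 and 2470 in siCtrl against 1187, 1208 and 995 (adjusted p = 1.2e-06), and was 1.56-fold higher in siQKI than in siRBFOX2 (adjusted p = 0.00023). KLF4 was at 4753 to 5762 in siCtrl and 2966 to 3147 in siRBFOX2, 1.74-fold lower (adjusted p = 1.9e-06).

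**Figure D5:**
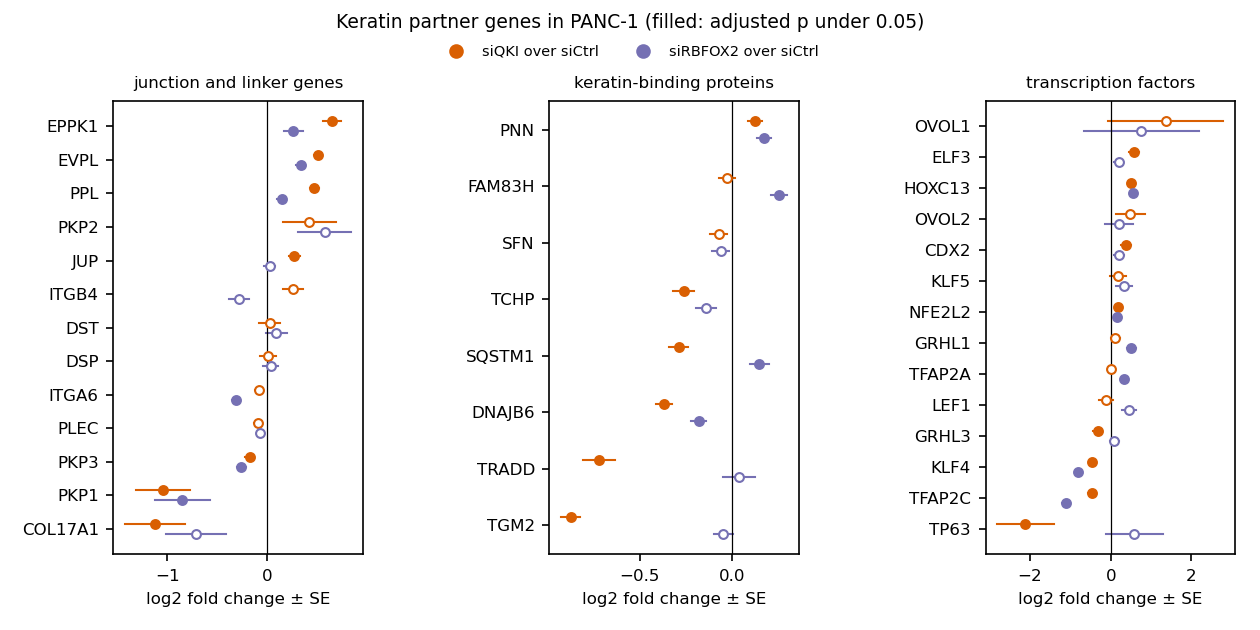
Log2 fold changes ± SE of the 35 tested partner genes in siQKI (orange) and siRBFOX2 (violet) against the same siCtrl libraries, in 3 panels for junction and linker genes, keratin-binding proteins and transcription factors. Filled points passed the test. TGM2 and TRADD lie left of 0 in siQKI and near 0 in siRBFOX2, and KLF4 and TFAP2C lie farther left in siRBFOX2 than in siQKI.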

How the data were processed

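PolyA RNA from 9 PANC-1 and 3 HPAF-II libraries (Universal Plus mRNA-Seq kit, paired-end) was sequenced by the authors. Per the submitters' processing notes, the authors used STAR 2.7.5a, SAMtools, Picard, FastQC and DESeq2 with hg38. The deposited values are a signal, namely gene counts over FAST DB genes divided by the authors' size factors, made separately for each line. All values were whole multiples of a step per library (within 0.01), but 82.1% to 84.8% of those of 1 to 30 steps were multiples of 3. A step therefore cannot be read as 1 fragment, and the number of fragments per library is not known. The strand setting is not given in the sources used here.

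Genes with a mean of at least 10 over the 9 PANC-1 libraries (22544) were tested with limma 3.58.1 (R 4.3.3; lmFit, contrasts.fit, eBayes with trend) on log2(normalized count + 1), in 1 fit of 3 groups, with Benjamini-Hochberg adjustment over all tested genes and a threshold of 0.05. Fold changes are on this log2(value + 1) scale, which understates changes of low genes. The script was tested on simulated data. The lines were compared without a test, on log2(value + 0.01) after rescaling to a total of 1000000. Levels per kilobase used the shortest principal transcript with a CCDS entry, and shared sequence was counted in windows of 150 bases. Python 3.11.15, numpy 2.4.6, pandas 2.3.3 and matplotlib 3.10.9 were used.

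The members and gene lists were chosen with earlier results of these data known. Named were keratins with a mean of at least 10 in either line and, from each partner list, up to 3 genes per direction that passed and changed by at least 1.5-fold. Alternatives varied the pseudocount, the filter, the scaling, the libraries in the fit, the trend and the replicate block. A filter at 1000 was added after seeing the data. 1 marker gene of the lists is not reported here.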

Additional observations from a re-analysis of the deposited data

How the results depend on the processing

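Without the mean-variance trend 2 keratins passed in siQKI against siCtrl in place of 4, with KRT18 (adjusted p = 0.0722) and KRT81 lost. Between the lines, 24 keratins were at least 2-fold apart with a pseudocount of 0.1 and 22 were at least 4-fold apart, in place of 37. With sums of normalized counts as deposited, the log2 ratio of the keratin sum was -0.052 for siQKI against siCtrl, in place of 0.0086, and 1.74 for HPAF-II against PANC-1, in place of 2.02. The other 154 alternative values of the main results stayed within 1.5 times the count or within the spread between replicates. Leaving out 1 library gave 3 to 6 keratins in siQKI, 3 to 5 in siRBFOX2, 4 to 6 in the direct comparison and 34 to 37 between the lines. It turned the sign of 3 changes that had not passed, KRT8 in siQKI (-0.0125 to 0.0475), KRT10 in siRBFOX2 (-0.111 to 0.0110) and KRT81 between the knockdowns (-0.222 to 0.0420). KRT75 passed in siQKI without siCtrl replicate 1 or siQKI replicate 1, and KRT78 without siCtrl replicate 1. Between the knockdowns, KRT75 passed without siQKI replicate 1, KRT32 without siRBFOX2 replicate 1 and KRT40 without siRBFOX2 replicate 3. With a filter at 1000, 3, 3 and 6 keratins passed. With the replicate block 4, 3 and 5 keratins passed, KRT4 being lost in siRBFOX2 (adjusted p = 0.0690) and KRT18 between the knockdowns (adjusted p = 0.0665), and no other keratin call changed. Libraries with the same number correlated no more than others (r -0.0325 to 0.0235 over 9 pairs, -0.0333 to 0.0384 over 18 pairs of different numbers), so the numbers were not taken as pairs. The planned count-based tests were not run, since the values did not give whole reads. Except where stated, the cause of these changes was not tested. Depth limits the 19 keratins with means between 10 and 100, where small changes could not be seen.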

Other observations

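Some genes outside the keratin family differed between the lines in the same libraries, and are given as values without a test and chosen after they were seen. KRT16P2, a pseudogene of the stress keratin KRT16, was at 415, 532 and 444 normalized counts in HPAF-II libraries and at 0, 0 and 6.04 in PANC-1 siCtrl libraries, while KRT16 itself was at 190 to 376 in HPAF-II. How the counting divided reads between KRT16 and its copies was not tested. Of the 13 junction and linker genes, 8 were at least 2-fold higher and 1 lower in HPAF-II, of the 8 keratin-binding proteins 3 and 3, and of the 16 transcription factors 8 and 5, where 53.2% of all compared genes were at least 2-fold apart. COL17A1 was at 95123 to 105352 in HPAF-II and 439 to 532 in PANC-1 siCtrl, and the hemidesmosomal integrin ITGB4 at 407934 to 452042 and 6290 to 7404. The epithelial transcription factors KLF5, ELF3 and GRHL2 were at 63498 to 160659, 67703 to 76823 and 7256 to 11523 in HPAF-II, and at 295 to 310, 1026 to 1227 and 0 to 23.0 in PANC-1 siCtrl. TFAP2C went the other way, with 0 to 0.918 in HPAF-II and 2237 to 2654 in PANC-1 siCtrl libraries.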
